A study of Mus musculus with 11 samples.

Results

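Messenger RNA of 53 mouse genes for DNA damage repair was measured in 11 high-grade gliomas, 9 with knockdown of Ezh2 and 2 controls. The genes were taken by symbol from a count table of 27687 genes and fall into 7 groups: 13 of homologous recombination, 10 of the Fanconi anaemia pathway, 8 of checkpoint signalling and break sensing, 5 of end joining, 3 of mismatch repair, 8 of nucleotide excision repair, and 6 of base excision repair and direct reversal. All 53 were found, and all 53 passed the filter on low counts. Rad54b is listed as 2 overlapping gene models, of which the longer was used.

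Both groups of tumours arose from the same kind of cell. Neural stem cells of the subventricular zone were taken from mice at the age of 7 days that carried conditional alleles named p53, Ink4a/Arf, Krasv12 and LucR, and a lentivirus with CMV-driven Cre was applied repeatedly in culture to recombine them. The resulting glioma-initiating cells received FH1-tUTG-shEzh2, a hairpin against Ezh2 that doxycycline induces, were sorted for GFP and were injected into the brains of NOD-SCID mice. Controls carry the same alleles and the same hairpin construct, and are labelled as tumours without Ezh2 knockdown, against prolonged knockdown in the other 9. By the design text some mice drank doxycycline and others did not, whereas the treatment label gives the drug at 2 mg/ml with 1% sucrose for every tumour, so that effects of drug and hairpin cannot be told apart. Nothing in the labels says whether tumours came from separate cell preparations, and p-values therefore describe only the scatter among these samples. That scatter exceeded counting noise in every pair of libraries of a group, with a chi-square per degree of freedom of at least 12.1. How much of the rest is technical was not tested.

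Cells repair breaks across both DNA strands either by homologous recombination, which copies the sister chromatid and is therefore used in S and G2 phase, or by end joining, which ligates the ends and is available throughout the cycle. The Fanconi anaemia proteins recognise crosslinks between strands and hand them to recombination, checkpoint kinases delay the cycle meanwhile, and mismatch and excision repair replace wrong or damaged bases on a single strand. The host strain bears on one of the genes: NOD-SCID mice carry the scid mutation of Prkdc, the catalytic subunit of the DNA-dependent protein kinase of end joining. Host and tumour cells are both of mouse, and their transcripts are counted together, so that fewer cells of a type and less RNA per cell cannot be told apart here.

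In the knockdown tumours, 8 of the 53 genes rose and 3 fell. Of the 8 that rose, 7 belong to homologous recombination (Rad51ap1, Xrcc2, Blm) and the Fanconi pathway (Fance, Fancb, Fancm, Fancl), and the eighth, Nbn, senses breaks. The 3 that fell (Ercc1, Ercc3, Ercc4) act in nucleotide excision repair. Among all 16241 genes tested, 10.3% were higher and 13.0% lower (edgeR quasi-likelihood test, adjusted p under 0.05), against 15.1% and 5.66% of the repair genes. The median log2 fold change of the 53 genes was 0.38, against 0.07 over all tested genes, and 43 of the 53 had a value above 0, which 54.4% of all tested genes had. All 9 knockdown tumours lay above both controls for 9 of the 53 genes and below both for 3, where 13.3% and 13.8% of all tested genes did so.

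**Figure D1:**
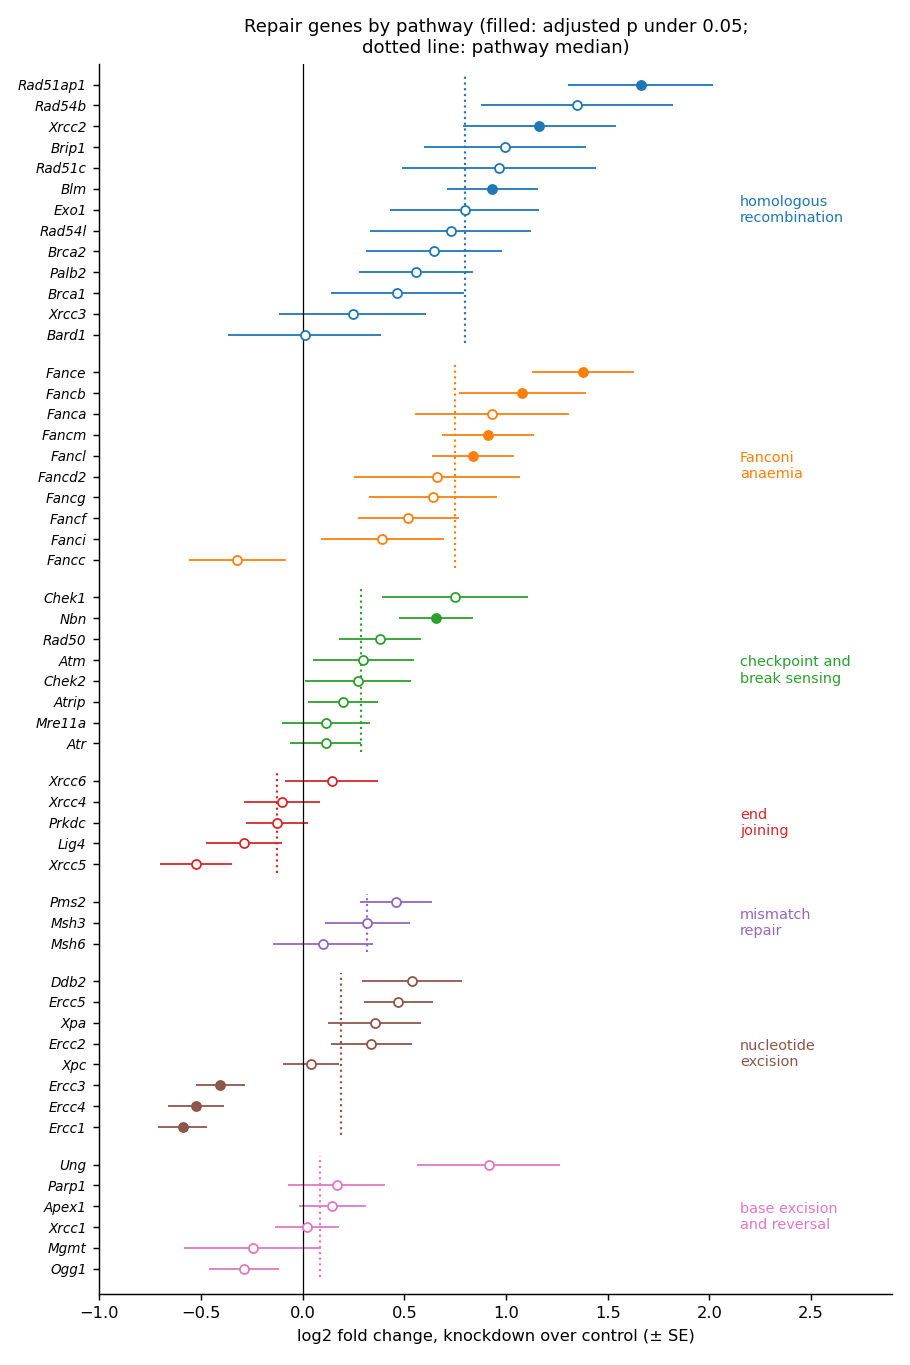
Fitted log2 fold change of each repair gene, knockdown over control, with its SE, grouped by pathway on the vertical axis. Filled points passed an adjusted p of 0.05, and dotted lines mark pathway medians, which run from -0.13 for end joining to 0.80 for homologous recombination.

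The sequences just upstream of some of these genes are shown because promoters of genes expressed in S and G2 phase often bind E2F factors or, at CCAAT boxes, the factor NF-Y. Whether such factors had a part in the changes was not tested. They come from RefSeq on GRCm38.p6, a later build than the mm9 of the counts, and are written 5′ to 3′ on the strand of the gene, leaving out bases in exons of protein-coding genes. Capitals mark CCAAT, which reads ATTGG on the other strand, and, as E2F-type letters, TTCCCGC with its variants TTCGCGC or else TTGCCGC or else TTGGCGC, on either strand. The stretch of Fancm also lies in an exon of a noncoding RNA of the opposite strand.
Rad51ap1, chr6:126939588-126939837, minus strand: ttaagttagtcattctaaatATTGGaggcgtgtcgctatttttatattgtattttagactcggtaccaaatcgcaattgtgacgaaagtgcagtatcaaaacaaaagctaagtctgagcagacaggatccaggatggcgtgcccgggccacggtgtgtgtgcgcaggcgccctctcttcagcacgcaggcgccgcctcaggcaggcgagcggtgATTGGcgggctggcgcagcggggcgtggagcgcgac
Fance, chr17:28313280-28313518, plus strand: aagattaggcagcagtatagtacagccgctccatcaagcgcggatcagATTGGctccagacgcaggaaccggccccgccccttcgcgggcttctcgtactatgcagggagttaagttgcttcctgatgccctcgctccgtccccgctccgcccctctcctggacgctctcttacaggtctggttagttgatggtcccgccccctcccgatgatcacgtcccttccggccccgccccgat
Blm, chr7:80535120-80535248, minus strand: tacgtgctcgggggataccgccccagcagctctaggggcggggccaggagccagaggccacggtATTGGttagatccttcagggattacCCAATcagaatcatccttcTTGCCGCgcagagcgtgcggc
Fancm, chr12:65075353-65075602, plus strand: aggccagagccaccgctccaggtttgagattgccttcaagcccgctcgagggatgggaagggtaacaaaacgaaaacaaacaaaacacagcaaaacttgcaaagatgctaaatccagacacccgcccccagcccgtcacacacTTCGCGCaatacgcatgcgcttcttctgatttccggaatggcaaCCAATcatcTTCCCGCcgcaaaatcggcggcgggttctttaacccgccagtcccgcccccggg
Ercc4, chr16:13109486-13109683, plus strand, shown as a gene that fell: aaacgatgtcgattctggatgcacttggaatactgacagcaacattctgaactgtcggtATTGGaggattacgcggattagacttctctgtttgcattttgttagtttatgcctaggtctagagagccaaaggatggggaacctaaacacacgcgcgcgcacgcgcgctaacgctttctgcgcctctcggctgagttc

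The table of promoters held 47 promoters of 43 of the 53 genes. In the 250 bases upstream of the start, CCAAT stood on either strand in 57.4% of these promoters and in 33.8% of all 32851 promoters of the table. An E2F-type match was found in 38.3% against 7.89%. The CHR-type letters TTTGAA, the element of late cell cycle genes, were found in 4.26% against 16%. CCAAT was present in 5 of the 6 promoters held for genes that rose (all but Fancl) and in 1 of the 2 held for genes that fell, that of Ercc4. E2F-type letters were present in 3 of the 6 (Blm, Fancb, Fancm) and in that of Ercc1, but not in those of Rad51ap1, Fance and Fancl. By pathway, the E2F-type share ran from 14.3% of 7 promoters in base excision repair to 80% of 5 in end joining, which holds no gene that rose. It was 33.3% in homologous recombination, 44.4% in the Fanconi pathway and 60% in nucleotide excision repair. A match is a description of the letters, and the base composition of the promoters was not matched.

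Ezh2, the methyltransferase of Polycomb repressive complex 2 and the target of the hairpin, was checked first. In the knockdown tumours it stood between 7.27 and 30.4 CPM (the count relative to library size, scaled with TMM factors), with a median of 14.6 CPM, and in the controls at 45.3 and 52.7 CPM. The groups did not overlap, and 33.1% of the control mean remained. The log2 fold change was -1.59 ± 0.44 (SE; edgeR, adjusted p = 0.023), and a two-sided exact permutation test over all 55 splits of the tumours gave the smallest p it can give, 0.018. With a single control the call was lost (adjusted p = 0.11 without control 1 and 0.14 without control 2).

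Total counts per library ran from 11209233 to 18638382, and no repair gene had fewer than 27 counts in a library. The conditional genes still gave reads in every tumour: Trp53 was at 22.9 ± 1.54 CPM (SD, n = 9) against 24.8 ± 6.96 CPM (SD, n = 2), and Cdkn2a at 35.6 ± 6.37 against 27.2 ± 0.844 CPM, neither past the test. Xist, the RNA of the inactive X chromosome, was between 41.4 and 106.5 CPM in knockdown tumours 2 to 6 and at 74.2 and 131.5 CPM in the controls, but at 1.10 CPM in knockdown 1 and between 0.108 and 0.531 CPM in knockdown 7, 8 and 9. Results are therefore also given for the 8 tumours with Xist of at least 1 CPM. The 6 stem cell markers summed to between 2202 and 3779 CPM in the knockdown tumours and to 7239 and 6237 CPM in the controls. Of the 6, 3 (Nes, Sox2, Vim) were lower. Most of the sum was Vim, with a mean of 2526 CPM in the knockdown tumours and 5043 CPM in the controls. Prom1 was as low as 1.44 CPM in control 2. Markers of other cells differed as well. Of 10 macrophage and microglia markers 9 were lower (summed 310.7 to 713.8 CPM against 830.1 and 1804 CPM) and of 8 neutrophil markers all 8 (2.45 to 9.43 against 209.4 and 62.8 CPM), whereas 3 of 8 oligodendrocyte markers were higher and 1 was lower (281.1 to 436.6 against 148.4 and 148.5 CPM). Of 10 neuron markers 3 were higher (Rbfox3, Snap25, Camk2a) and 1, Syn1, was lower (63.3 to 399.7 against 188.9 and 127.8 CPM). Rbfox3 had only 6 and 1 counts in the controls, and the fitted values of Gad1, Gad2 and Nefl were below 0 without passing. Of 6 endothelial markers 1, Cldn5, was higher and 1, Flt1, was lower (110.2 to 242.3 against 390.9 and 212.6 CPM). Flt1 weighed most in the control sums, with a mean of 41.1 CPM in the knockdown tumours and 218.7 CPM in the controls. The fitted values of Pecam1, Cdh5, Kdr and Tek were above 0 without passing. None of 6 astrocyte markers passed (93.4 to 544.0 against 191.6 and 218.9 CPM). Mitochondrial genes took 3.43% to 13.5% of the counts in the knockdown tumours against 4.28% and 5.45%. No marker of these lists was at 0 in all tumours, and the part of cell mixture or RNA quality in the results below was not tested.

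Homologous recombination had the largest median of the 7 pathways, a log2 fold change of 0.80, but without knockdown 3 it was 0.67 and that of the Fanconi pathway 0.70. Of its 13 genes 3 rose and none fell, and all 13 fitted values were above 0, between 0.01 for Bard1 and 1.66 for Rad51ap1, although Bard1 turned to -0.03 with RLE scaling and to -0.36 without control 1, its controls being at 9.08 and 16.5 CPM. The share that rose, 23.1%, stands beside the 10.3% of all tested genes.

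Rad51ap1, which helps strands to pair during recombination, rose most of the 53 genes. Its gene (ENSMUSG00000030346) lies on mm9 at chr6:126873068-126889605. In the knockdown tumours it stood between 9.65 CPM in knockdown 7 and 28.4 CPM in knockdown 3, with a median of 18.2 CPM, and in the controls at 4.77 and 7.02 CPM. Every knockdown tumour was above both controls. The log2 fold change was 1.66 ± 0.36 (SE; edgeR, adjusted p = 0.0073), or 3.16-fold. It lost its call without control 1 (1.41, adjusted p = 0.10) and kept it without control 2 (1.96, adjusted p = 0.034), with adjusted p between 2.8e-05 and 0.10 over the 19 alternatives.

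Blm, the helicase that dissolves joined recombination intermediates (chr7:87599879-87680005), stood between 17.5 and 32.1 CPM with a median of 25.1 CPM, against 11.3 and 14.1 CPM in the controls. The groups did not overlap, and the log2 fold change was 0.93 ± 0.23 (SE; edgeR, adjusted p = 0.013). Xrcc2, which helps recombination filaments to form on single-stranded DNA (chr5:25195630-25211643), stood between 11.9 and 26.4 CPM with a median of 16.8 CPM, while the controls differed from each other, at 5.31 and 11.3 CPM. Knockdown 7, at 11.9 CPM, was barely above control 2. The log2 fold change of Xrcc2 was 1.16 ± 0.38 (adjusted p = 0.043). Blm did not pass without control 1 (0.78, adjusted p = 0.15) or without control 2 (1.10, adjusted p = 0.050). Xrcc2 did not pass without control 1 (0.72, adjusted p = 0.36), by limma-voom (1.15, adjusted p = 0.074), without the low-count filter (1.14, adjusted p = 0.055) or without any one of knockdown 1 to 6 (adjusted p between 0.050 and 0.065).

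The other 10 recombination genes did not pass the test. Rad54b, a DNA translocase, was near the threshold at 1.35 ± 0.47 (SE; edgeR, adjusted p = 0.057), with 5.80 to 23.0 CPM in the knockdown tumours against 4.00 and 6.39 CPM. The shorter gene model of Rad54b, which overlaps the longer, gave 0.88 ± 0.38. Brip1, the helicase partner of BRCA1, was at 0.99 ± 0.40 (adjusted p = 0.090), and Rad51c, which acts in the same step as Xrcc2, at 0.97 ± 0.48 (adjusted p = 0.16). Exo1, the nuclease that resects ends, was at 0.80 ± 0.37, Rad54l, a translocase, at 0.73 ± 0.40, and Brca2, which helps recombination filaments to form, at 0.65 ± 0.33. Palb2, which joins BRCA1 to BRCA2, was at 0.56 ± 0.28. Brca1 itself was at 0.47 ± 0.33, with 20.9 to 63.3 CPM against 34.5 and 28 CPM, so that its groups overlapped. Its partner Bard1 was at 0.01 ± 0.38 and Xrcc3 at 0.25 ± 0.36. Another protein-coding gene model overlaps Xrcc3 and Rad54l, whose reads cannot be told apart from those of the neighbour if strand was not used.

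Knockdown 7 was low for most of these genes. It was the lowest of the 9 knockdown tumours in 12 of the 13 recombination genes and lay below at least 1 control in 10 of them. In the other 8 knockdown tumours, 7 of the 13 genes lay wholly above both controls, against 3 when knockdown 7 is counted. Rad51c shows this: it was at 2.63 CPM in knockdown 7, between 7.34 and 13.2 CPM in the other knockdown tumours, and at 2.85 and 6.26 CPM in the controls. With knockdown 7 left out, 6 recombination genes rose in place of 3, namely Rad51ap1, Xrcc2, Blm, Rad51c (1.06 ± 0.31), Brip1 (1.06 ± 0.31) and Rad54b (1.42 ± 0.39). In that fit 11.5% of all tested genes were higher and 15% lower. Knockdown 7 was picked for being low in these same genes, so part of both gains is built in. The share of all tested genes above both controls in the other 8 tumours was not counted, nor the share for which knockdown 7 was lowest.

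**Figure D2:**
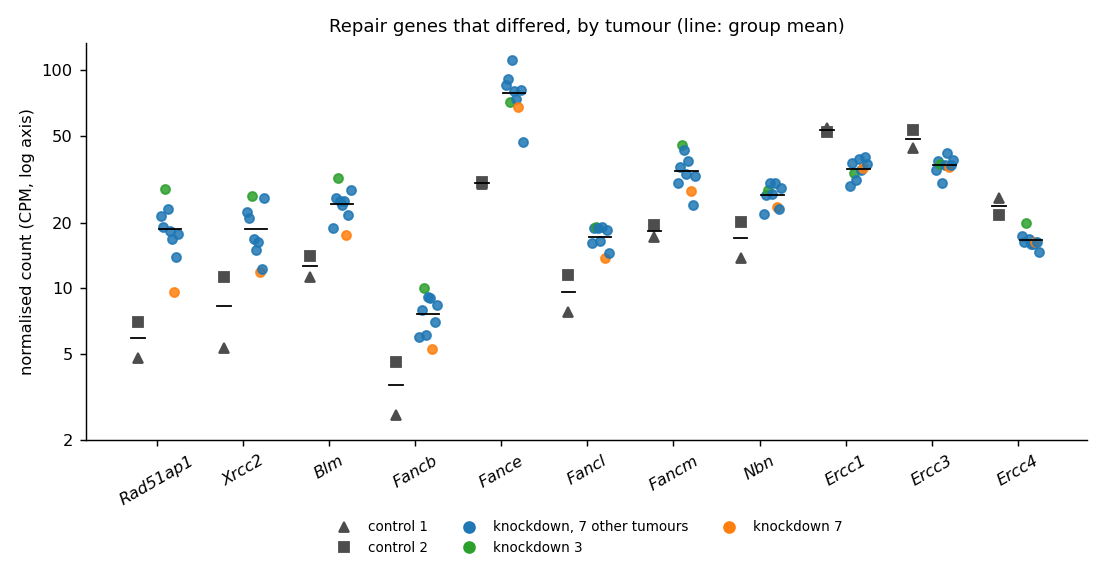
Normalised counts (CPM, log axis) of the 11 repair genes that rose or fell, 1 point per tumour, with lines at group means. Knockdown 7 (orange) is the lowest knockdown tumour for Rad51ap1, Xrcc2, Blm, Fancb and Fancl, and all 9 knockdown tumours lie below both controls for Ercc1, Ercc3 and Ercc4.

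The Fanconi pathway was close to homologous recombination, with a median of 0.75. Of its 10 genes 4 rose and none fell, a share of 40% beside the 10.3% of all tested genes, and 9 of 10 fitted values were above 0.

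Fance, an adaptor of the core complex that contacts FANCD2, had the smallest p of the 53 genes. Its gene (ENSMUSG00000007570) lies on mm9 at chr17:28450475-28463513. It stood between 47.1 CPM in knockdown 9 and 111.0 CPM in knockdown 4, with a median of 80.4 CPM, and the controls were nearly equal at 30.1 and 30.6 CPM. The groups were far apart. Knockdown 7, low for most repair genes, was at 68.2 CPM, and of the knockdown tumours only knockdown 9 was lower. The log2 fold change was 1.38 ± 0.25 (SE; edgeR, adjusted p = 0.0031). Fance is the only one of the 53 genes that passed under all 19 alternatives, with values between 1.30 and 1.54 and adjusted p between 2.2e-06 and 0.043.

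Fancm, the translocase that anchors the core complex to DNA (chr12:66176593-66233045), stood between 24.2 and 45.4 CPM with a median of 33.5 CPM, against 17.2 and 19.5 CPM. Its log2 fold change was 0.91 ± 0.23 (SE; edgeR, adjusted p = 0.015). Fancl, the ubiquitin ligase of the complex (chr11:26286135-26371876), was even among the knockdown tumours, between 13.8 and 19.0 CPM with a median of 18.5 CPM, against 7.77 and 11.5 CPM (0.84 ± 0.20, adjusted p = 0.012). Vrk2, a protein-coding gene, overlaps Fancl and had 40.1% as many counts. Fancb, an X-linked member of the core complex (chrX:161418524-161435204), was scarcer, between 5.25 and 10.003 CPM with a median of 7.98 CPM, against 2.62 and 4.57 CPM (1.08 ± 0.31, adjusted p = 0.027). In none of these 3 did the groups overlap. Without control 1 none of the 3 passed (Fancm 0.82, Fancl 0.58 and Fancb 0.74, adjusted p between 0.15 and 0.28). Without control 2, Fancl (1.15, adjusted p = 0.019) and Fancb (1.54, adjusted p = 0.039) passed and Fancm did not (1.00, adjusted p = 0.071).

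The remaining Fanconi genes did not pass the test. Fanca was at 0.93 ± 0.38 (SE; edgeR, adjusted p = 0.095), Fancg at 0.64 ± 0.31 and Fancf at 0.52 ± 0.25, all of the core complex. Fancd2 and Fanci, the pair that the complex ubiquitinates, were at 0.66 ± 0.41 and 0.39 ± 0.30. Fancc, also of the core complex, was the one below 0, at -0.32 ± 0.24, with the controls at 19.2 and 10.8 CPM and the knockdown tumours between 8.82 and 16.3 CPM. Fanca, Fancc, Fancd2, Fancf and Fanci are each overlapped by another protein-coding gene model.

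Among checkpoint and break-sensing genes 1 of 8 rose, a share of 12.5% that is near the 10.3% of all tested genes. Nbn, the subunit that ties the MRN break-sensing complex to ATM (chr4:15885072-15919736), stood between 21.9 and 30.4 CPM with a median of 27.0 CPM, against 13.7 and 20.2 CPM. The groups did not overlap, and the log2 fold change was 0.66 ± 0.18 (SE; edgeR, adjusted p = 0.024). Without control 1 it was 0.40 (adjusted p = 0.29), and without control 2 it was 0.96 (adjusted p = 0.024). Its partners Rad50 (0.38 ± 0.20) and Mre11a (0.12 ± 0.22) did not pass. Chek1, the effector kinase of replication stress, was at 0.75 ± 0.36 (adjusted p = 0.15) and ranged from 9.10 CPM in knockdown 7 to 31.3 CPM in knockdown 3, against 9.39 and 14.6 CPM. The sensor kinases Atm (0.30 ± 0.25) and Atr (0.11 ± 0.17), the ATR partner Atrip (0.20 ± 0.17) and the effector kinase Chek2 (0.27 ± 0.26) did not pass either. All 8 fitted values were above 0 (Mre11a was at -0.04 without control 1), and the median was 0.29.

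End joining had the lowest median, -0.13, and none of its 5 genes passed the test. Xrcc5, which encodes the Ku80 subunit that clasps broken ends, came nearest, at -0.52 ± 0.18 (SE; edgeR, adjusted p = 0.052), with 30.6 to 54.8 CPM in the knockdown tumours against 53.5 and 61.5 CPM. Only knockdown 3, at 54.8 CPM, was above control 1. Xrcc5 was called lower under 6 of the 19 alternatives, RLE scaling, DESeq2 and limma-voom among them. Its Ku70 partner Xrcc6 was at 0.14 ± 0.23, and the ligase pair Lig4 and Xrcc4 at -0.29 ± 0.19 and -0.10 ± 0.19. Prkdc, the gene mutated in the host strain, was at -0.13 ± 0.15 (adjusted p = 0.58), with 17.3 to 24.4 CPM, a median of 21.8 CPM, and 21.6 and 24.6 CPM in the controls. The table does not separate transcripts of the mutant host allele from those of the tumour cells.

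Mismatch repair had 3 genes and no call. Msh6 and Msh3, which recognise mismatches and small loops, were at 0.10 ± 0.25 and 0.32 ± 0.21, and Pms2, which nicks the strand to be replaced, at 0.46 ± 0.18 (SE; edgeR, adjusted p = 0.080). All 3 are overlapped by another protein-coding gene model.

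Nucleotide excision repair went both ways. Of its 8 genes 3 fell, 37.5% beside the 13.0% of all tested genes, and none rose, while 5 fitted values were above 0 and the median was 0.19. Ercc1 and Ercc4 encode the partners of the XPF nuclease that cuts 5′ of the lesion. Ercc1 (chr7:19930127-19941873) stood between 29.5 and 39.8 CPM with a median of 35.5 CPM, against 54.6 and 52.0 CPM, a log2 fold change of -0.59 ± 0.12 (SE; edgeR, adjusted p = 0.0057). Ercc4 (chr16:13109777-13150710) stood between 14.6 and 19.9 CPM with a median of 16.3 CPM, against 26.0 and 21.7 CPM (-0.53 ± 0.14, adjusted p = 0.019). For both partners all 9 knockdown tumours were below the 2 controls.

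Ercc3, a helicase of the factor TFIIH that opens the DNA and also serves transcription, stood between 30.5 and 41.7 CPM with a median of 36.7 CPM, against 43.9 and 53.2 CPM (-0.41 ± 0.12, SE; edgeR, adjusted p = 0.031). Its groups did not overlap either. The other TFIIH helicase, Ercc2, was at 0.34 ± 0.20. None of the 3 that fell passed without control 1 (Ercc1 -0.56, Ercc3 -0.54, Ercc4 -0.39, adjusted p between 0.061 and 0.24). Without control 2, Ercc1 (-0.63) and Ercc4 (-0.65) passed and Ercc3 (-0.26, adjusted p = 0.31) did not. None passed a test against a 1.5-fold change (adjusted p between 0.69 and 1.00). Ercc5, the nuclease that cuts 3′ of the lesion, lay above both controls in all 9 knockdown tumours, with 24.1 to 36.6 CPM against 21.5 and 21.1 CPM, but did not pass (0.47 ± 0.17, adjusted p = 0.064). The damage sensors Ddb2 (0.54 ± 0.25) and Xpc (0.04 ± 0.14) and the verifier Xpa (0.35 ± 0.23) did not pass.

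Base excision repair had no call among 6 genes and a median of 0.08. Ung, the glycosylase that removes uracil, was the furthest from 0, at 0.92 ± 0.35 (SE; edgeR, adjusted p = 0.079). It stood between 12.2 and 25.7 CPM in the knockdown tumours, and the controls lay apart at 5.85 and 13.3 CPM, so that its groups overlapped. Parp1, which signals strand breaks (0.17 ± 0.24), the scaffold Xrcc1 (0.02 ± 0.16, and -0.01 with RLE scaling) and the abasic-site nuclease Apex1 (0.15 ± 0.16) lay near 0. The oxidised guanine glycosylase Ogg1 was at -0.29 ± 0.17. Mgmt, which reverses alkylation of guanine and whose level is followed clinically in glioma, stood between 1.80 and 4.39 CPM against 3.00 and 3.26 CPM (-0.25 ± 0.34). It was the scarcest of the 53 per length in the knockdown tumours. In the controls Rad54b was the scarcest, but its shorter gene model, with a control mean of 2.14 CPM, was left out of that level.

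Levels were compared between genes only after division by exon length (union of exons of GENCODE M21 basic transcripts, in CPM per kb). In the controls the highest level of the 53 was that of Ercc1, 29.7 ± 1.04 CPM per kb (SD, n = 2), and Fance was eighth in order at 14.98 ± 0.171 CPM per kb. In the knockdown tumours Fance was highest at 38.9 ± 8.64 CPM per kb (SD, n = 9), above Parp1 at 23.9 ± 4.91 CPM per kb. Xrcc6 (19.8 ± 4.502), Ercc1 (19.8 ± 1.92) and Apex1 (19.7 ± 2.79) followed and did not differ beyond their spread. Rad51ap1 went from place 35 at 2.64 ± 0.710 CPM per kb to place 19 at 8.36 ± 2.40 CPM per kb.

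Set side by side, the pathways that use recombination had larger changes than the others. Homologous recombination and the Fanconi pathway together had 7 of 23 genes higher and none lower, and the other 5 pathways had 1 of 30 higher and 3 lower. Their medians of 0.80 and 0.75 compare with 0.32 for mismatch repair, 0.29 for checkpoint genes, 0.19 for nucleotide excision, 0.08 for base excision and -0.13 for end joining. The medians of mismatch repair and nucleotide excision moved to 0.18 and 0.11 without control 2, and that of base excision to -0.04 without control 1. The difference of medians between homologous recombination and end joining, the alternative routes for a broken chromosome, was 0.92 on the log2 scale, and that between homologous recombination and the Fanconi pathway was 0.05. No test was made of these differences between lists. End joining had the lowest median and homologous recombination and the Fanconi pathway the highest in the main fit and under all 19 alternatives. These alternatives reuse the same tumours. By share called in either direction, nucleotide excision (3 of 8, 37.5%) stood above homologous recombination (3 of 13, 23.1%). In the wider list given below, the median of mismatch repair (0.50) lay above that of homologous recombination (0.35).

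**Figure D3:**
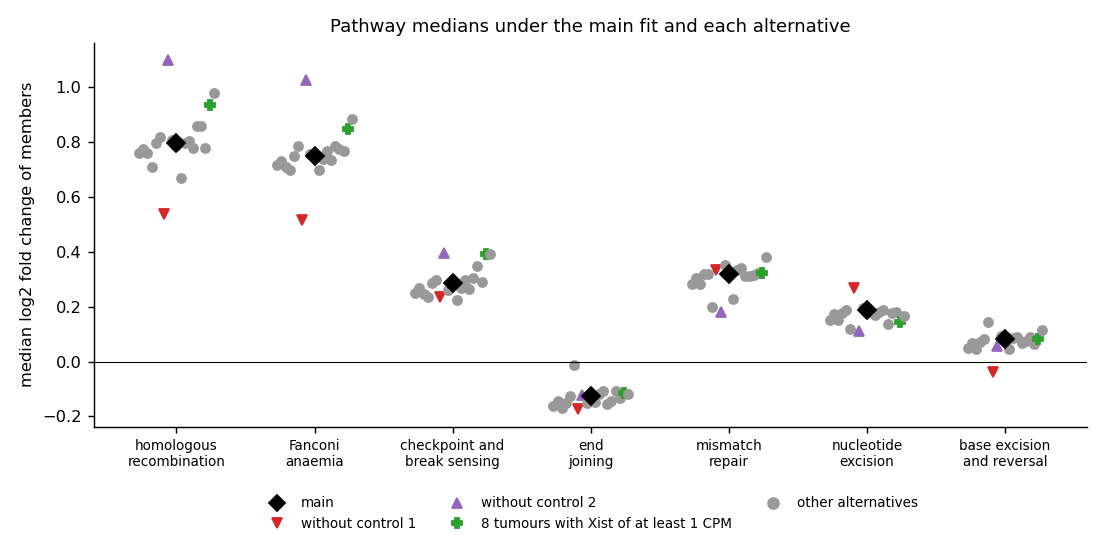
Median log2 fold change of the genes of each pathway (vertical axis) in the main fit (diamond) and under each alternative. Homologous recombination moves between 0.54 without control 1 and 1.10 without control 2, and end joining stays below 0.

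Values were also taken tumour by tumour, and the order of the pathways was not the same in each. For each tumour the mean log2(CPM + 1) of a pathway was taken as a deviation from the mean of the controls, which lay at -0.22 and 0.22 for homologous recombination. The knockdown tumours lay between -0.12 in knockdown 7 and 1.37 in knockdown 3, with a median of 0.79, and 8 of 9 were above both controls. For the Fanconi pathway all 9 were above both controls, between 0.20 and 0.94 against -0.15 and 0.15. For end joining 8 of 9 were below both controls, between -0.35 and 0.17 against -0.03 and 0.03, and knockdown 3 was again the highest. For nucleotide excision repair the mean hardly moved, between -0.06 and 0.09 against 0.03 and -0.03. That mean averages opposite changes, as Ercc1, Ercc3 and Ercc4 lay below both controls and Ercc5 above both in all 9 knockdown tumours. The recombination mean minus the end joining mean was above both controls in 8 of 9 knockdown tumours, knockdown 7 excepted (0.18 to 1.24 against -0.19 and 0.19).

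Spread among the knockdown tumours differed between the pathways as well. The median SD of a gene over the 9 tumours, on the log2(CPM + 1) scale, was 0.47 for homologous recombination and 0.18 for nucleotide excision repair. It ran from 0.11 for Ercc4 to 0.57 for Rad54b. Knockdown 3 was the highest of the 9 in 35 of the 53 genes and knockdown 7 the lowest in 31. How often they were so among all tested genes was not counted. Ezh2 stood at 30.4 CPM in knockdown 3 and 30.1 CPM in knockdown 9, and at 8.31 and 7.27 CPM in knockdown 7 and 8. Whether levels of the repair genes went with the remaining Ezh2 was not tested.

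Markers of proliferating cells moved with the genes of homologous recombination. Of 20 such markers 5 were higher (Mcm3, Mcm5, Mcm6, Cdk1, Birc5) and none lower, with a median log2 fold change of 0.83, and their summed level was between 1120 and 3018 CPM in the knockdown tumours against 920.4 and 1338 CPM. On the per-tumour scale the markers lay between 0.02 in knockdown 7 and 1.41 in knockdown 3, against -0.29 and 0.29, the same tumours being lowest and highest as for homologous recombination. Subtracting the marker mean from the recombination mean left -0.02 ± 0.12 (SD, n = 9) for knockdown against 0.07 and -0.07 for the controls, so that the groups overlapped. For the Fanconi pathway this difference was -0.10 ± 0.18, against 0.14 and -0.14, and ran from -0.46 in knockdown 3 to 0.18 in knockdown 7. Proliferation markers and recombination genes moved together in these values, and the Fanconi genes did so less closely. The end joining mean instead lay below both controls in 8 of 9 knockdown tumours, and that of nucleotide excision hardly moved. The part of proliferation in the changes of the repair genes was not tested.

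**Figure D4:**
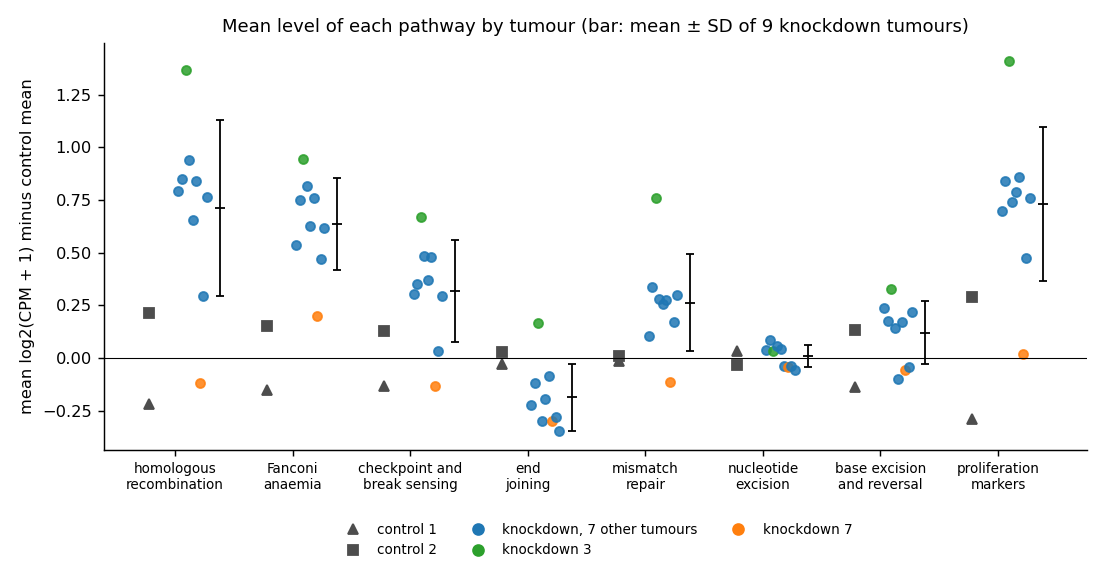
Mean log2(CPM + 1) of each pathway's genes in each tumour, as the deviation from the mean of the 2 controls (vertical axis), beside 20 proliferation markers, with mean ± SD of the 9 knockdown tumours. Knockdown 3 (green) is highest and knockdown 7 (orange) lowest for homologous recombination, Fanconi and proliferation genes alike. The mean of nucleotide excision repair, whose genes went both ways, stays between -0.06 and 0.09.

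The controls differed from each other in the same genes. Control 1 was below control 2 in 11 of the 13 recombination genes, with a median log2 ratio of 0.58 of control 2 over control 1, and in 9 of the 10 Fanconi genes (0.49). In nucleotide excision repair it was below in 2 of 8 (-0.05). The share of all tested genes with control 1 below control 2 was not counted. With control 2 as the only control, 1 of the 53 genes, Fance, passed the test, where 2.28% of all tested genes were higher and 5.33% lower. With control 1 as the only control, 7 rose (Rad51ap1, Xrcc2, Fancb, Fance, Fancl, Nbn and Ung) and 2 fell (Ercc1, Ercc4), where 3.30% of all tested genes were higher and 7.05% lower.

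Restricting the comparison to the 8 tumours with Xist of at least 1 CPM, 6 of them knockdown, raised the counts. There, 21 of the 53 genes rose and 3 fell, beside 15.7% higher and 18.2% lower of all tested genes. Of the 23 recombination and Fanconi genes 16 rose and none fell, among them Brca1 (0.65 ± 0.20, SE; edgeR, adjusted p = 0.033), Brip1 (1.203 ± 0.25, adjusted p = 0.0073), Rad54b (1.58 ± 0.33, adjusted p = 0.0077) and Fanca (1.08 ± 0.28, adjusted p = 0.018). Of the other 30 genes 5 rose, Chek1 (0.92 ± 0.23, adjusted p = 0.016) and Ung (1.01 ± 0.34, adjusted p = 0.048) among them, and the 3 that fell were again Ercc1, Ercc3 and Ercc4. This set leaves out knockdown 7, 8 and 9, of which knockdown 7 and 8 had the lowest recombination means, so that Xist status and those tumours cannot be told apart. With a minimum of 10 CPM, which also leaves out knockdown 1, 18 rose and 2 fell, beside 13.5% higher and 15.8% lower of all tested genes.

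A wider list of 113 other repair genes, written from general knowledge, was read from the same fit. Of 111 tested, 28 rose (25.2%, beside 10.3% of all tested genes) and 3 fell (2.70%, beside 13.0%), with a median of 0.33. In homologous recombination 7 of 28 rose and none fell, led by Rpa2 (1.03 ± 0.22, SE; edgeR, adjusted p = 0.0074) and Rpa3 (1.22 ± 0.29, adjusted p = 0.012), subunits of the protein that coats single-stranded DNA. In the Fanconi pathway 3 of 9 rose, among them the FANCM partners Stra13 (1.13 ± 0.25, adjusted p = 0.0076) and Apitd1 (1.43 ± 0.33, adjusted p = 0.011). Of 17 checkpoint genes 4 rose, with the smallest p for Tipin of the replication fork (1.38 ± 0.16, adjusted p = 0.00030) and Rnf168, a ubiquitin ligase at breaks (0.80 ± 0.16, adjusted p = 0.0046).

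In the wider list the contrast between pathways was smaller. Mismatch repair had 5 of 15 higher, including Pms1, a homolog of Pms2 (1.28 ± 0.30, SE; edgeR, adjusted p = 0.012). Nucleotide excision repair had 5 of 18 higher and 1 lower, with Ccnh, a cyclin of TFIIH (0.80 ± 0.16, adjusted p = 0.0043), Cetn2, which binds XPC (0.63 ± 0.14, adjusted p = 0.0094), and the scaffold Cul4a (-0.35 ± 0.11, adjusted p = 0.039). Base excision repair had 3 of 18 higher and 1 lower: Mbd4, a glycosylase (1.00 ± 0.25, adjusted p = 0.015), Neil3, another glycosylase (1.87 ± 0.53, adjusted p = 0.025), and Parp2 rose, whereas Smug1, a uracil glycosylase, fell (-0.99 ± 0.20, adjusted p = 0.0053). In end joining 1 of 6 rose, Aplf (1.03 ± 0.23, adjusted p = 0.0094), and 1 fell. The medians of these wider lists were 0.56 for the Fanconi pathway, 0.50 for mismatch repair, 0.35 for homologous recombination, 0.24 for end joining, 0.23 for base excision, 0.20 for checkpoint genes and 0.18 for nucleotide excision repair. Mismatch repair thus lay above homologous recombination here, and end joining was not the lowest.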

How the data were processed

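RNA sequencing of 11 tumours (9 Ezh2 knockdown, 2 control) was used. The authors deposited one table of raw counts per Ensembl gene with symbols and mm9 coordinates. Per the submitters' processing notes, TopHat 1.4.0, HTSeq and mm9 were used, with roles, settings and strand use not given in the sources used here. The test was edgeR 4.0.16 in R 4.3.3 (filterByExpr, which kept 16241 genes, TMM, quasi-likelihood F-test over all 11 libraries, no covariates), with Benjamini-Hochberg adjustment over every tested gene. The SE is the log2 fold change divided by the square root of F. Alternatives were RLE factors, no filter, DESeq2 1.42.0, limma-voom 3.58.1, a test against a 1.5-fold change, a replicate block, each library left out, and only libraries with Xist. Replicates were separate libraries (Pearson's r of log2 CPM between 0.943 and 0.989 among knockdown tumours and 0.970 between controls).

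The genes and lists were chosen with earlier results of these data known. By rule, every repair gene that passed was named with its values, beside Ezh2, Rad51ap1 and Fance, the 2 with the smallest p in a pathway without a call, and up to 2 other repair genes per pathway and direction. The remaining genes were named to account for all 53. Some single genes of the wider list are counted but not reported here by name. Of the other repair genes, 4 were matched through current symbols. Another protein-coding gene model overlaps 19 of the 53 genes, and 10 of the 11 genes that passed have no such overlap.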

Additional observations from a re-analysis of the deposited data

Results flagged for a closer look

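Of the 53 repair genes and Ezh2, 4 genes had a knockdown tumour whose gap to the next, on the log2(CPM + 1) scale, exceeded Dixon's 95% critical share of the range of the 9 tumours. Chance flags about 1 in 20 groups. Rad51c was at 2.63 CPM in knockdown 7, where the next lowest tumour was at 7.34 CPM. Xrcc1 was at 35.1 CPM in the same tumour, with the next at 44.5 CPM. Msh3 was at 40.6 CPM in knockdown 3, with the next highest at 28.1 CPM, and Apex1 at 32.4 CPM there, with the next at 25.7 CPM.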

How the results depend on the processing

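The 2 controls and the replicate block limit these results most. The number of repair genes that rose, 8, became 1 with the replicate block, 2 in the test against a 1.5-fold change and 21 in the 8 libraries with Xist of at least 1 CPM, and 18 with at least 10 CPM, a limit chosen after seeing the data. Of all tested genes 10.3% were higher in the main fit, 2.23% with the block and 2.77% in the test against a 1.5-fold change. In the 2 Xist settings 15.7% and 13.5% were higher. The number of repair genes that fell, 3, became 0 with the block and 0 in the test against a 1.5-fold change, and 2 without the low-count filter. Of all tested genes 13.0% were lower in the main fit, and 1.99%, 4.37% and 7.56% in these 3 settings. Leaving out 1 library gave between 1 and 14 higher (1 without control 1, 14 without knockdown 7) and between 0 and 4 lower. Genes called in all, 3790, numbered 686 with the block, 1159 in the test against a 1.5-fold change, and between 1290 and 4269 with 1 library left out. Ezh2 did not pass with the block (-1.55, adjusted p = 0.057) or in the test against a 1.5-fold change (-1.59, adjusted p = 0.091), and ran from -1.76 to -1.48 with 1 library left out. No repair gene called in the main fit changed sign under any alternative. Only the numbers 1 and 2 occur in both groups, and same-numbered tumours did not deviate together (r = -0.15 and 0.01), so that the block rests on 2 pairs and 1 residual degree of freedom. The median of end joining was -0.01 with the block. The cause of these differences was not tested.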
